A study of Mus musculus with 2 samples.

Results

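The ATP-binding cassette (ABC) transporters were followed in single-cell RNA libraries of endothelial cells, which line blood and lymph vessels, from the mouse ileum (distal small intestine). The members were all gene rows whose symbol starts with Abca to Abcg followed by a digit, 50 of 31053 rows. They comprised 16 genes of subfamily A, 10 of B, 10 of C, 4 of D, 1 of E, 3 of F and 6 of G. Family members with other kinds of symbols, such as Tap1, Tap2 and Cftr, fall outside this rule. The material came from wild-type male C57Bl/6 mice aged 8 weeks. Cells without surface EpCAM and CD45 and with CD31 were sorted, PDPN-positive as lymphatic and PDPN-negative as blood endothelial cells. All labels of the 2 libraries are shared, so they form 1 group (n = 2), and every comparison is between classes of cells within it. The sources used here do not say whether separate mice, or how many, gave the libraries, nor which cell came from which gate.

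An ABC transporter binds and splits ATP on its cytoplasmic face and uses the energy to move a substrate across a membrane, most often outward. In the endothelium of the brain, P-glycoprotein and the Abcg2 protein on the blood-facing membrane send drugs back into the lumen, a main part of the blood-brain barrier. Abca1 and Abcg1 hand cholesterol and phospholipid to high-density lipoprotein, Abcc9 is the regulatory subunit of an ATP-sensitive potassium channel, and members of subfamilies E and F have no membrane domain and act on ribosomes.

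Classes were set by raw counts of unique molecular identifiers (UMIs, 1 per captured RNA molecule). Lymphatic cells held at least 5 UMIs of Mmrn1, Lyve1 and Prox1 together, and blood endothelial cells at least 5 of Flt1, Cd34, Plvap and Esam. Among blood cells, at least 4 UMIs of Ackr1, Selp and Madcam1 marked venous cells and at least 3 of Sema3g, Fbln5 and Stmn2 arterial cells. The others were called capillary, Plvap-high where Plvap, the gene of the fenestral diaphragm protein, exceeded Gpihbp1 plus Aqp1, and Gpihbp1/Aqp1 capillary otherwise. No ABC transporter entered these rules. Library 1 and library 2 gave 78 and 976 lymphatic, 147 and 883 arterial, 70 and 267 venous, 231 and 1084 Gpihbp1/Aqp1 capillary and 361 and 2362 Plvap-high capillary cells.

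Markers outside the rules fitted most class names. Flt4 and Reln were highest in lymphatic cells, Gja4, Gja5 and Hey1 in arterial cells, Vwf in venous cells, and Cd36 and Rgcc in Gpihbp1/Aqp1 capillary cells, in both libraries. Nr2f2, a regulator of vein identity, was highest in lymphatic cells and next highest in venous ones, and Kdr was highest in Plvap-high capillary cells. Library 2 was the larger, with 26645476 UMIs in 6302 barcodes, against 3806199 in 1026 barcodes in library 1; 2 barcodes occurred in both. Some classes of library 2 also carried RNA of other cell types. Red cell genes summed to 2140.5 CPM (UMI counts of the gene scaled to a common total per class) in its Gpihbp1/Aqp1 capillary cells and epithelial genes to 574 CPM in its Plvap-high cells, against 2.7 and 11.5 CPM in library 1.

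Of the 50 genes, 7 had no UMI in lymphatic and blood cells of either library (Abca12, Abca13, Abca15, Abca17, Abcb5, Abcb11 and Abcc6), 8 had 1 to 10 and 35 had more. The gut epithelial sterol exporters Abcg5 and Abcg8 had 5 and 2 UMIs, and Abcc2, a bile canalicular exporter of organic anions, had 2. In what follows, paired values are CPM in library 1 and library 2. CPM here counts molecules by their 3' end and is not divided by gene length. Summed over all 50 genes, Gpihbp1/Aqp1 capillary cells had the highest level in both libraries, 2476 and 1914 CPM. Lymphatic cells had 1394 and 1119.7, arterial cells 1491 and 1236, venous cells 1659 and 1268, and Plvap-high capillary cells 1522 and 1295 CPM. Of the groups by role, the exporters of drugs and organic anions differed most. They had 1566 and 1151 CPM in Gpihbp1/Aqp1 capillary cells, against 287 and 285 in lymphatic and 723 and 527 in arterial cells. Venous cells had 539 and 426 CPM and Plvap-high capillary cells 531 and 426 CPM. Sterol and phospholipid exporters summed to 497 and 381 CPM in Gpihbp1/Aqp1 capillary cells. That was less than in lymphatic, venous and Plvap-high capillary cells in both libraries. In sums, and throughout, a class made of fewer expressing cells and one with less RNA per cell give the same value.

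**Figure D1:**
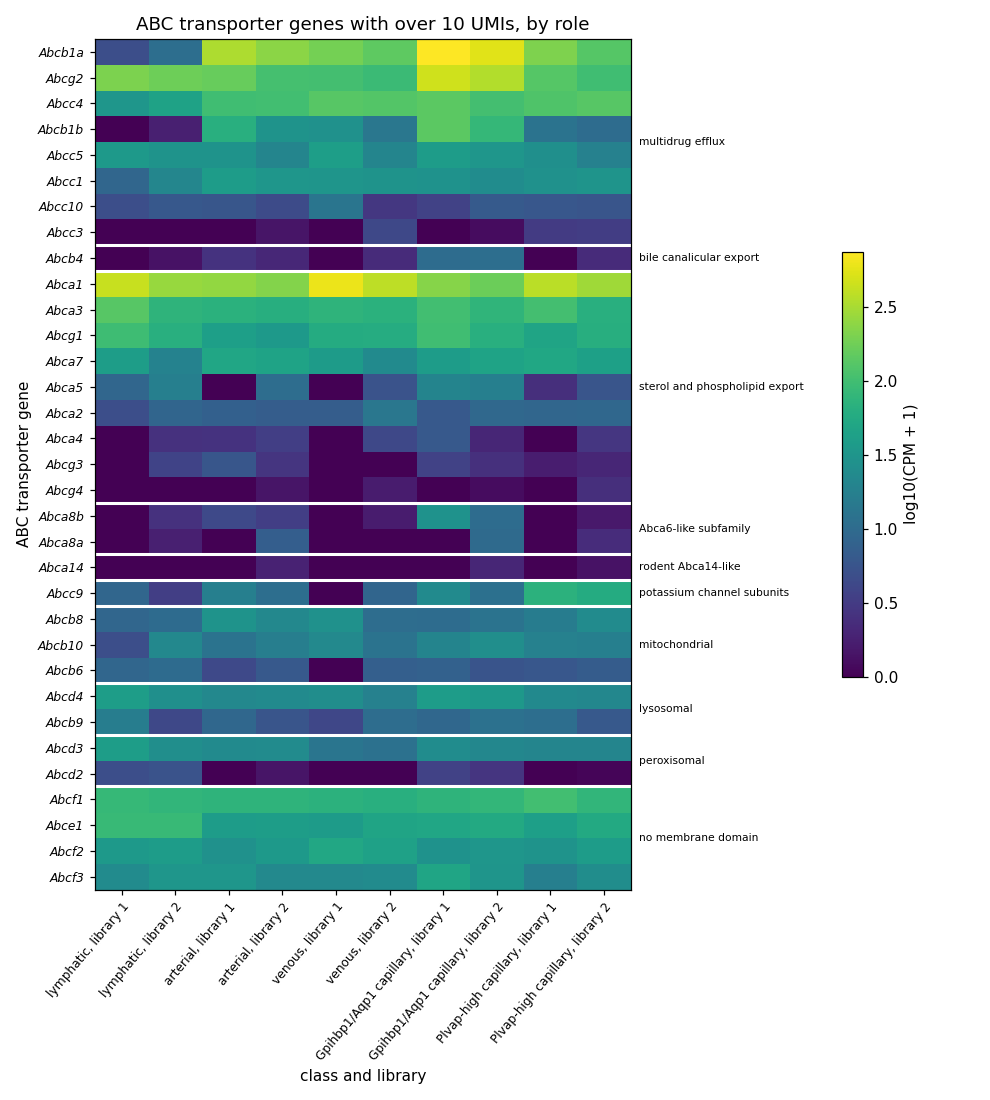
Level of ABC transporter genes with over 10 UMIs, as log10(CPM + 1), in each class (columns, library 1 left of library 2), grouped by role (rows). Abcb1a and Abcg2 are brightest in the Gpihbp1/Aqp1 capillary columns, Abca1 in the venous columns, and Abcc9 in the Plvap-high capillary columns.

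Tests used edgeR's quasi-likelihood test on UMI sums per class and library, with Benjamini-Hochberg adjustment over all genes tested and a false discovery rate of 0.05. After the filter on low counts, 27 of the 50 members were tested between lymphatic and blood cells and 26 among the 4 blood classes. The p-values rest on how far class differences varied between these 2 libraries, which may be technical, and mostly on a spread shared across genes. Gpihbp1/Aqp1 capillary against Plvap-high capillary cells gave the most called members, 11, against a background of 27.7% of all genes tested. Of these, 8 were higher (background 12.8%) and 3 lower (14.9%). The higher ones include Abcb4, Abca8b and Abca5, which passed the filter only through their level in Gpihbp1/Aqp1 capillary cells. Arterial against Gpihbp1/Aqp1 capillary cells called 8 members (background 18.6%), 2 higher (10.7%) and 6 lower (7.84%), or 2 and 9 without scaling. Arterial against Plvap-high capillary cells called 7 (background 14.2%), 2 higher (8.15%) and 5 lower (6.08%). Arterial against venous cells called 6 (background 23.5%), 3 higher (10.9%) and 3 lower (12.6%), or 4 and 2 without scaling. Venous against Gpihbp1/Aqp1 capillary cells called 9 (background 30.1%), 3 higher (16.7%) and 6 lower (13.4%), or 1 and 9 without scaling. Venous against Plvap-high capillary cells called 3 (background 24.2%). Lymphatic against blood cells called 10 (background 47.1%), 3 higher (22.1%) and 7 lower (24.9%). As shares of the members tested, these were 42.3, 30.8, 26.9, 23.1, 34.6, 11.5 and 37% in that order. The share was nearest to the background for arterial against venous and venous against Gpihbp1/Aqp1 capillary cells, above it for the capillary contrast and for both arterial against capillary contrasts, and below it for venous against Plvap-high and for lymphatic against blood cells. These comparisons share classes, so their calls are not independent of each other. Abcd2, 1 of the 3 called higher in lymphatic cells, passed the filter only through its levels there.

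Among the genes that differed between the capillary classes were 3 neighbours on chromosome 5 of GRCm38 (GENCODE vM21), all on the plus strand. Abcb1a (ENSMUSG00000040584) spans 8660077 to 8748575 and Abcb1b (ENSMUSG00000028970) 8798147 to 8866315. Together they encode the mouse forms of P-glycoprotein, the broad drug exporter. Abcb4 (ENSMUSG00000042476), from 8893717 to 8959231, encodes a flippase of phosphatidylcholine known from bile. The 250 bases before the RefSeq start (GRCm38.p6) are shown for the genes called in the capillary contrast that have a single such start, lying within 30 bases of the GENCODE start, apart from Abcc5, which had the smallest difference among them. Capitals mark matches, on either strand, to the GC box, whose letters searched were GGGCGG. They also mark the box named by its letters CCAAT, bound by nuclear factor Y in many promoters. The last motif marked was the TATA box, searched for with the letters TATAAA.

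The first pair lies beside Abcb1a on chromosome 5, Abcb1b at chr5:8797897-8798146 and Abcb4 at chr5:8893471-8893720 (plus strand).
Abcb1b: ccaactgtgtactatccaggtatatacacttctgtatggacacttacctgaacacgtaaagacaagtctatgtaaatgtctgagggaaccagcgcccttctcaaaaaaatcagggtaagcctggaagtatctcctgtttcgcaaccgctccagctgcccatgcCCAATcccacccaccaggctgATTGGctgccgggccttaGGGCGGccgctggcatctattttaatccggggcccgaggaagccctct
Abcb4: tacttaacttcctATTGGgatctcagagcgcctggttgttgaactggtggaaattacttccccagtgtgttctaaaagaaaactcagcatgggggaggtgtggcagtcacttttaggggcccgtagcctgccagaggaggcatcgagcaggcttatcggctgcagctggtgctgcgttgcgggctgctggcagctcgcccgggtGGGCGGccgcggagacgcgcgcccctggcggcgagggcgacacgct

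The other 3 lie on the minus strand, Abca8b at chr11:109995846-109996095, Abca5 at chr11:110337717-110337966 and Abca1 at chr4:53159896-53160145.
Abca8b: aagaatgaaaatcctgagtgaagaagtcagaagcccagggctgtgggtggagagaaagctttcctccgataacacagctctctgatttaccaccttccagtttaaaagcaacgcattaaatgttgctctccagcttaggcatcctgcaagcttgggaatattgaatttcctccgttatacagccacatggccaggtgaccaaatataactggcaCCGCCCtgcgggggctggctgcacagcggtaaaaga
Abca5: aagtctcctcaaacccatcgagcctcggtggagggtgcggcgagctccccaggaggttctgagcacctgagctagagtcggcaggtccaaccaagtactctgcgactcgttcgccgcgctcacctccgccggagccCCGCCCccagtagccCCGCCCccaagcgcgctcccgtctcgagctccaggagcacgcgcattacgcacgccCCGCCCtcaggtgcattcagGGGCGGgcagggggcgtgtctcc
Abca1: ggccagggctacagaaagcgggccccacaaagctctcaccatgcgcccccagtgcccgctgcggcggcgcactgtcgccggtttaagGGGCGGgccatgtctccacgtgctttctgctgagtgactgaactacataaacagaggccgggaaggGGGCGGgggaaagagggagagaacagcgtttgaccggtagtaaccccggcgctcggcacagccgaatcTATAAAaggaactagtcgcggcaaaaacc

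The Abcc5 window, not printed, held no match to any of the 6 motifs searched. Each of the 5 printed windows held a GC box, which 32.74% of all 32851 RefSeq promoter windows of that length held, and the counts were 1 in Abcb1b, 1 in Abcb4, 1 in Abca8b, 4 in Abca5 and 2 in Abca1. A CCAAT box (33.85% of all windows) occurred in Abcb1b, with 2 matches, and in Abcb4, with 1. The TATA box match (12.37% of all windows) was in Abca1. None of these 5 windows held a match to TGANTCA (AP-1, 6.749% of all windows), TGACNNNGC (antioxidant response element, 10.16%) or CCGGAAG (ETS, 6.907%). RefSeq promoter entries were found for 38 of the 50 members.

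The drug exporters Abcb1a, Abcb1b and Abcg2 were highest in Gpihbp1/Aqp1 capillary cells. Abcb1a stood at 754 and 557 CPM there, against 209 and 131 CPM in Plvap-high capillary cells, with arterial cells at 329 and 238 and venous cells at 189.8 and 144 CPM. The library values did not overlap between Gpihbp1/Aqp1 capillary cells and any other class. The fitted log2 fold change over Plvap-high cells was 1.87 ± 0.10 (SE, adjusted p = 6.29e-17 by edgeR's quasi-likelihood test). Abcb1b showed a wider gap, 142 and 82.1 CPM in Gpihbp1/Aqp1 capillary cells against 11.5 and 9.50 CPM in Plvap-high cells (log2 3.08 ± 0.18, adjusted p = 4.19e-16 by edgeR's quasi-likelihood test). Its arterial level was 63.8 and 29.3 CPM and its venous level 27.5 and 12.8 CPM. Abcg2, the breast cancer resistance protein and the other main drug exporter of the brain barrier, had 461 and 348 CPM in Gpihbp1/Aqp1 capillary cells, against 130.2 and 96.8 CPM in Plvap-high cells (log2 1.71 ± 0.11). Arterial cells held 160.4 and 105 CPM of it and venous cells 104 and 90.8 CPM. All 3 exporters were thus above every other blood class in both libraries, and each of these differences passed in every refit for the 3 genes.

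**Figure D2:**
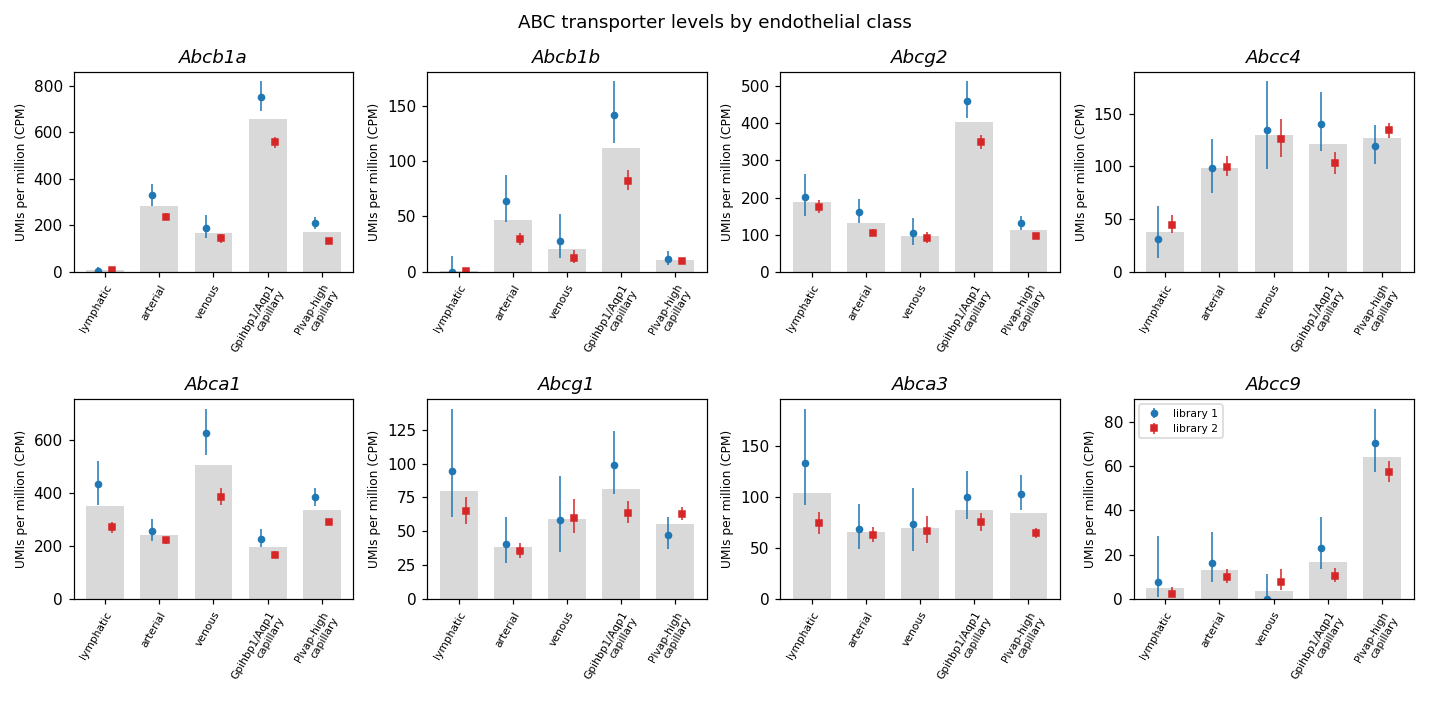
Levels of 8 ABC transporter genes in CPM (vertical axes) in 5 endothelial classes (horizontal axes). Points are libraries with 95% Poisson intervals, which cover counting error only, and grey bars are the mean of the 2 libraries; Abcb1a in Gpihbp1/Aqp1 capillary cells reaches 754 and 557 CPM, and Abcc9 is above 50 CPM in Plvap-high capillary cells alone.

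Further members rose with them at lower levels. Abcb4 had 9.46 and 9.92 CPM in Gpihbp1/Aqp1 capillary cells against 0 and 1.25 CPM in Plvap-high cells (log2 3.05 ± 0.58). Abca8b, of a subfamily with little known transport function, had 28.4 and 9.41 CPM against 0 and 0.576 CPM (log2 4.37 ± 0.60), and Abca5, a lysosomal member, 18.9 and 16.5 against 1.44 and 4.80 CPM (log2 1.95 ± 0.41). Without their level in Gpihbp1/Aqp1 capillary cells, Abcb4, Abca8b and Abca5 would have fallen under the filter on low counts. The tests could thus hardly have found them lower there. Abcc5, which exports cyclic nucleotides and organic anions, had 37.8 and 31.3 against 25.9 and 17.4 CPM (log2 0.64 ± 0.20). Abcd4, the lysosomal cobalamin (vitamin B12) transporter, had 37.8 and 33.1 against 22.3 and 20.4 CPM (log2 0.58 ± 0.20). For Abcc5 and Abcd4 the call was lost in DESeq2's Wald test, without the library block and with equal cell numbers. Lower were Abcc9 and Abca1, described below, and the mitochondrial Abcb8, at 9.46 and 11.4 against 15.1 and 23.4 CPM (log2 -1.09 ± 0.28), whose call ended under the same 3 settings and whose difference in library 1 alone was -0.62. For Abca8b the difference was 2.72 in library 2 alone, and for Abca5 it was 3.03 in library 1 alone. The last 500 bases of the transcripts were searched for 31-base words found in other genes. In a neighbour of the same cluster occurred 10.64% of those of Abcb1b and 22.55% of those of Abcb4, so these low counts may be affected. Abcb1a had no such word. For Abcd4, 23.19% occurred in another gene, and 3.191% in another member.

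**Figure D3:**
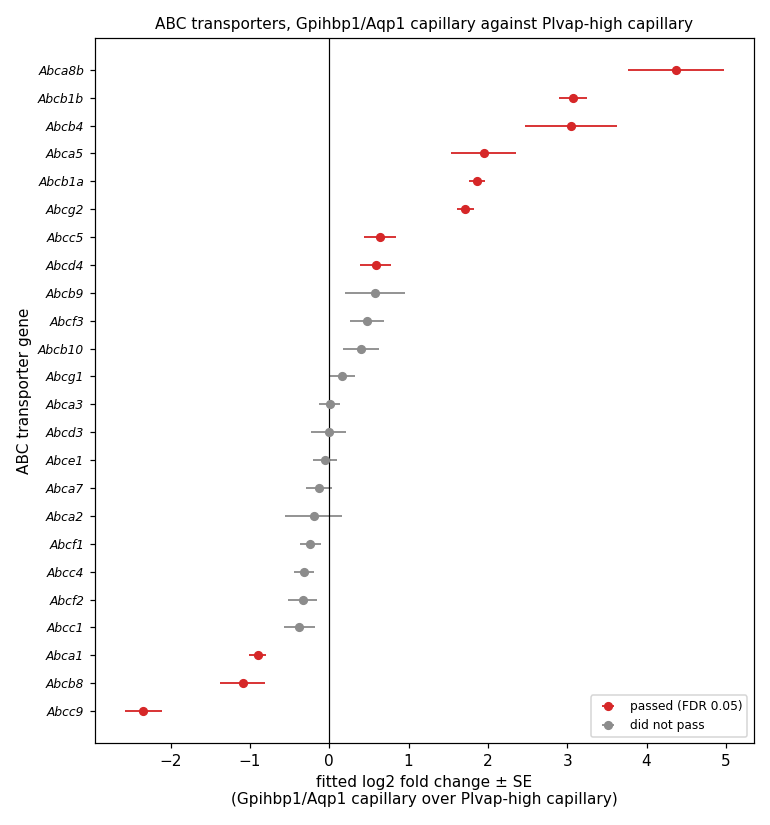
Fitted log2 fold change of tested ABC transporter genes in Gpihbp1/Aqp1 capillary over Plvap-high capillary cells (horizontal axis), with bars of 1 SE. Red points passed a false discovery rate of 0.05; 8 lie right of zero, up to Abca8b at 4.37, and 3 lie left, down to Abcc9 at -2.35.

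Marker genes of other cell types differed along with these 2 capillary classes. The sum of 7 mural markers was 216 and 321 CPM in Gpihbp1/Aqp1 capillary cells against 28.0 and 70.9 CPM in Plvap-high cells, and that of 5 fibroblast markers 60.8 and 459 against 14.4 and 144 CPM. The fibroblast sum of library 1 was mostly Col3a1, 35 of 45 UMIs in Gpihbp1/Aqp1 capillary cells. Every listed mural gene except Cspg4 and Kcnj8, both at 0 in the Plvap-high cells of library 1, and every fibroblast gene except Dcn, at 0 in the Gpihbp1/Aqp1 capillary cells of library 1, had a UMI in each of these 4 sums. Abca8b and Abca8a were high in the 14 fibroblast cells of library 2, at 143 and 172 CPM, where the fibroblast sum was 14513 CPM. Without cells holding a UMI of the fibroblast or red cell marker genes, Epcam or Krt8, the same 11 members passed. Abca8b was then at log2 4.12 and Abcb4 at log2 2.90. The epithelial genes Vil1, Fabp2, Lgals4 and Reg3b were not used there, so cells holding them could stay. Reg3b stood at 460 CPM in the Plvap-high cells of library 2. Without cells holding a UMI of Rgs5, Pdgfrb or Notch3, 11 members passed as well. Both refits were chosen after seeing the data.

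Along the share of Gpihbp1 plus Aqp1 among the UMIs of the 3 dividing genes, capillary cells were placed in 5 bins of equal width. Most cells lay at the ends, 326 and 2145 in the lowest bin and 208 and 904 in the highest. In library 2, Abcb1a stood at 128, 144, 274, 348 and 616 CPM from the lowest to the highest share. Abcg2 stood at 89.7, 158, 239, 381 and 356 CPM and Abcb1b at 8.30, 24.8, 28.7, 46.2 and 91.8 CPM in the same bins. Abcc9 ran the other way, at 60.7, 26.3, 22.1, 8.81 and 7.89 CPM. Intermediate cells thus had intermediate levels of Abcb1a in library 2. In library 1, Abcb1a was at 207, 222, 367, 459 and 787 CPM, where the 3 middle bins held 29, 16 and 11 cells. Within 2 UMIs of the dividing line lay 47 of 592 and 209 of 3446 capillary cells.

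**Figure D4:**
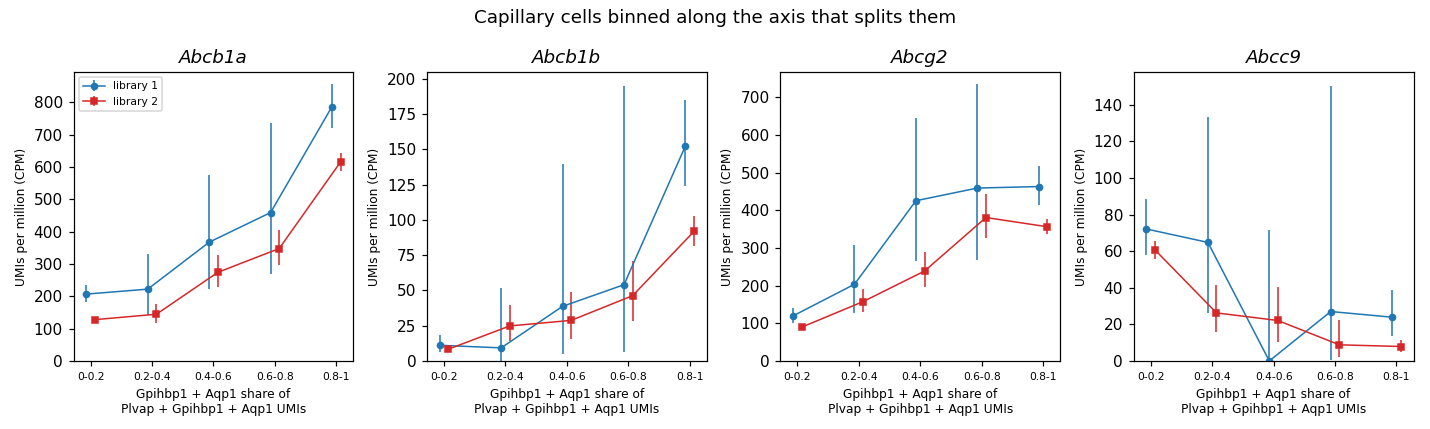
Levels of 4 ABC transporter genes in CPM (vertical axes) in capillary cells binned by the share of Gpihbp1 and Aqp1 among the UMIs of Plvap, Gpihbp1 and Aqp1 (horizontal axes). Lines join the bins of a library and bars are 95% Poisson intervals; Abcb1a climbs to 787 CPM in library 1 and 616 CPM in library 2, while Abcc9 ends at 7.89 CPM in library 2.

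Arterial cells lay between the capillary classes for P-glycoprotein genes. Against Gpihbp1/Aqp1 capillary cells, Abcb1a was lower by a log2 difference of -1.12 ± 0.10 and Abcb1b by -1.30 ± 0.17, and Abcg2 by -1.58 ± 0.11. Against Plvap-high capillary cells, Abcb1a was higher (log2 0.74 ± 0.11) and so was Abcb1b (log2 1.77 ± 0.21, adjusted p = 3.11e-08 by edgeR's quasi-likelihood test). Abcg2 did not pass there (log2 0.14 ± 0.12, 95% interval -0.10 to 0.37), nor against venous cells (log2 0.17 ± 0.15). Against venous cells, Abcb1a was higher in arterial cells at log2 0.59 ± 0.13 and Abcb1b at 1.04 ± 0.29. These 2 calls, and that of Abcb1a over Plvap-high cells, ended without the library block, and that of Abcb1b also in DESeq2, with equal cell numbers and without the 5% of cells with most UMIs. Arterial cells also had less Abcb4 (log2 -2.95 ± 0.69) and Abca8b (log2 -2.17 ± 0.54) than Gpihbp1/Aqp1 capillary cells, both lost in DESeq2. Both genes passed the filter on low counts only through their level in Gpihbp1/Aqp1 capillary cells.

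Venous cells also had lower Abcb1a, Abcb1b and Abcg2 levels than Gpihbp1/Aqp1 capillary cells. The log2 difference was -1.71 ± 0.12 for Abcb1a, -2.34 ± 0.25 for Abcb1b and -1.75 ± 0.14 for Abcg2, all called in every refit. Abcb4 and Abca8b held 2 and 1 UMIs in the venous cells of both libraries together, 9.31-fold lower for Abcb4 (95% counting interval 2.43 to 79.1) and 23.5-fold lower for Abca8b (4.05 to 943), and both passed. The Abcb4 call ended in DESeq2, without the library block and with markers scaled per 10000 UMIs. Abca5 was lower too (0 and 4.48 CPM against 18.9 and 16.5 CPM, log2 -2.03 ± 0.64), a call lost without the block. Abcb4, Abca8b and Abca5 passed the filter on low counts only through their level in Gpihbp1/Aqp1 capillary cells. In single libraries, Abca8b was at -2.67 in library 2 and Abca5 at -4.32 in library 1. Against Plvap-high capillary cells neither Abcb1a (log2 0.15 ± 0.13, 95% interval -0.09 to 0.40) nor Abcg2 (log2 -0.03 ± 0.14, -0.32 to 0.25) passed. Venous cells had more UMIs per cell than Gpihbp1/Aqp1 capillary cells, with medians of 4096.5 and 5397 against 2999 and 3274. Their median mitochondrial share was also higher, 4.11 and 4.01% against 1.87 and 2.07%. The part of these depth and quality differences in the venous levels was not tested.

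Lymphatic cells held little P-glycoprotein RNA but held Abcg2. Abcb1a had 3.94 and 9.99 CPM in lymphatic cells (1 and 25 UMIs), against 352 and 231 CPM in blood cells. The groups did not overlap, and the log2 fold change was -4.82 ± 0.25 (adjusted p = 1.15e-77 by edgeR's quasi-likelihood test). Abcb1b held 0 and 2 UMIs in lymphatic cells against 175 and 591 in blood cells, 42.1-fold lower in lymphatic cells over both libraries (95% counting interval 11.6 to 349; fitted log2 -5.41 ± 0.56). Abcg2 had 201 and 175 CPM in lymphatic cells against 204 and 142 CPM in blood cells and did not pass (log2 0.11 ± 0.16, 95% interval -0.21 to 0.43). This blood value pools classes of unlike Abcg2 level. In both libraries the lymphatic level lay below that of Gpihbp1/Aqp1 capillary cells and above those of the other blood classes. Lymphatic cells were not tested against single blood classes. Abcc4, an exporter of cyclic nucleotides and prostaglandins, was lower in lymphatic cells, at 31.5 and 44.8 CPM against 122 and 121 CPM in blood cells (log2 -1.62 ± 0.21). Abcc1, an exporter of leukotriene C4 and glutathione conjugates, had 7.87 and 19.99 CPM against 29.6 and 28.5 CPM (log2 -0.76 ± 0.29), a call lost in DESeq2 and with equal cell numbers, at -1.78 in library 1 and -0.49 in library 2 alone. Lymphatic cells also had fewer UMIs per cell, with medians of 2894 and 2145 against 3473 and 4111 in blood cells, and more mitochondrial UMIs, 3.47 and 5.32% against 2.33 and 2.63%. The part of these depth and quality differences in the lymphatic levels was not tested.

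**Figure D5:**
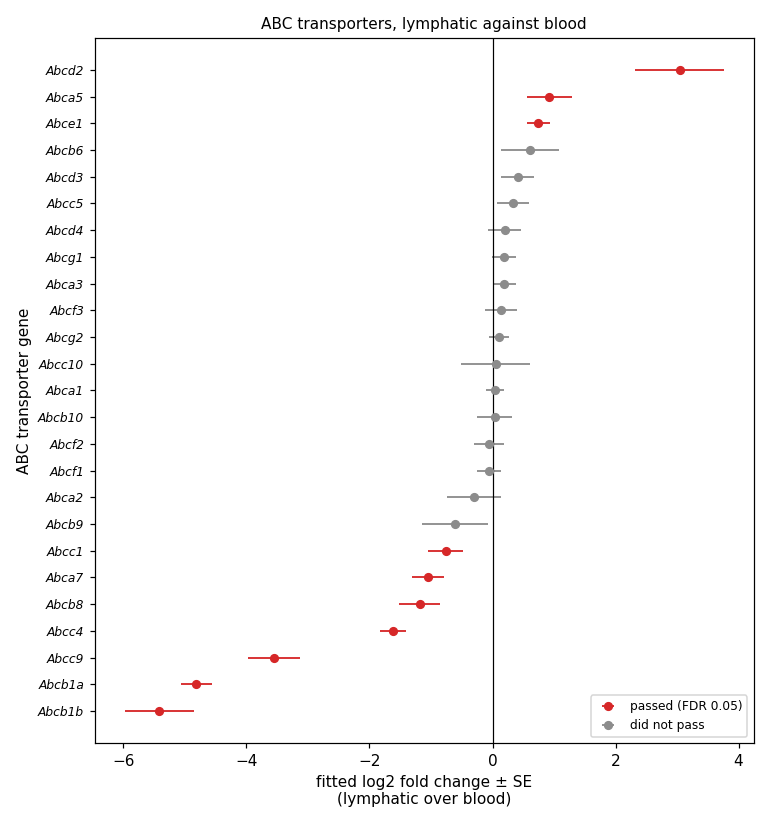
Fitted log2 fold change of tested ABC transporter genes in lymphatic over blood endothelial cells (horizontal axis), with bars of 1 SE. Red points passed a false discovery rate of 0.05; Abcb1b at -5.41 and Abcb1a at -4.82 lie farthest left and Abcd2 at 3.04 farthest right.

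Within blood vessels Abcc4 had 98.2 and 99.9 CPM in arterial, 135 and 126 in venous, 141 and 103 in Gpihbp1/Aqp1 capillary and 119 and 134 CPM in Plvap-high capillary cells. Lower arterial levels passed against venous cells (log2 -0.52 ± 0.16) and Plvap-high cells (log2 -0.41 ± 0.13), and a higher venous level passed against Gpihbp1/Aqp1 capillary cells (log2 0.42 ± 0.16). None of these 3 calls held in DESeq2 or without the block, the first was at -0.33 in library 2 alone, and the last had the opposite sign in library 1 alone, at -0.06. Abcc1 and Abcc5 ranged between 23.9 and 37.6 CPM and between 17.4 and 39.8 CPM over the blood classes.

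Among the sterol exporters, Abca1 followed another order and was highest in venous cells. Abca1, which loads cholesterol onto apolipoprotein A-I, had 627 and 387 CPM in venous cells, 384 and 293 in Plvap-high capillary, 259 and 222 in arterial and 228 and 168 CPM in Gpihbp1/Aqp1 capillary cells. Venous and Gpihbp1/Aqp1 capillary cells thus stood at opposite ends in both libraries. The venous level passed over Gpihbp1/Aqp1 capillary cells (log2 1.55 ± 0.12, adjusted p = 4.15e-13 by edgeR's quasi-likelihood test) and over Plvap-high cells (log2 0.64 ± 0.11), in every refit. In library 2 alone, without library 1, the second difference was log2 0.40. Gpihbp1/Aqp1 capillary cells had less than Plvap-high cells (log2 -0.90 ± 0.11), and arterial cells less than venous cells (log2 -1.13 ± 0.12). Arterial cells also passed against Plvap-high cells (log2 -0.49 ± 0.11, lost without the block) and against Gpihbp1/Aqp1 capillary cells (log2 0.42 ± 0.11, lost in 4 refits and at log2 0.18 in library 1 alone). Lymphatic cells held 433 and 271 CPM of Abca1 against 359.6 and 267 CPM in blood cells and did not pass (log2 0.04 ± 0.15).

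Abcg1, which passes cholesterol to mature high-density lipoprotein, was lowest in arterial cells. It had 94.5 and 64.8 CPM in lymphatic, 40.9 and 35.3 in arterial, 58.2 and 60.1 in venous, 98.7 and 63.8 in Gpihbp1/Aqp1 capillary and 47.5 and 63.1 CPM in Plvap-high capillary cells. The arterial level was below every other class in both libraries. Its difference passed in every refit against Gpihbp1/Aqp1 capillary cells (log2 -0.90 ± 0.20, adjusted p = 0.00104 by edgeR's quasi-likelihood test). Against venous cells (log2 -0.87 ± 0.24) and Plvap-high cells (log2 -0.74 ± 0.18) the calls were lost in DESeq2 and with equal cell numbers, and the differences in library 1 alone were -0.50 and -0.21. Lymphatic and blood cells did not differ past the threshold (log2 0.19 ± 0.19, 95% interval -0.19 to 0.58), nor did the other 3 pairs of blood classes.

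Among the other lipid members, Abca3, a phospholipid transporter of lamellar bodies in the lung, passed in none of the 7 comparisons. Its level was 134 and 74.4 CPM in lymphatic, 68.7 and 63.2 in arterial, 73.5 and 67.1 in venous, 100.01 and 75.3 in Gpihbp1/Aqp1 capillary and 104 and 64.6 CPM in Plvap-high capillary cells. Abca7, a phospholipid exporter related to Abca1, was lower in lymphatic than in blood cells, at 39.4 and 18.0 CPM against 44.5 and 40.7 CPM (log2 -1.05 ± 0.27). In library 1 alone that difference was -0.17, and the call was lost in DESeq2 and with equal cell numbers. Arterial cells held more Abca7 than venous cells (49.1 and 45.1 against 36.7 and 23.0 CPM, log2 0.68 ± 0.25) and venous cells less than Plvap-high capillary cells (51.1 and 41.9 CPM, log2 -0.66 ± 0.23), calls that ended under 3 settings each; the first was at 0.41 in library 1 alone. Lymphatic cells had more Abca5 than blood cells (7.87 and 16.4 against 4.88 and 7.90 CPM, log2 0.92 ± 0.36), lost in 5 refits and at 0.59 in library 1 alone.

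The potassium channel subunit Abcc9 marked Plvap-high capillary cells among the endothelial classes. It had 70.5 and 57.4 CPM there, against 7.87 and 2.40 in lymphatic, 16.4 and 10.1 in arterial, 0 and 7.67 in venous and 23.0 and 10.4 CPM in Gpihbp1/Aqp1 capillary cells. The differences from Plvap-high cells were log2 -2.35 ± 0.23 for Gpihbp1/Aqp1 capillary, -2.46 ± 0.24 for arterial and -3.11 ± 0.36 for venous cells. All 3, and the lower level in lymphatic than in blood cells (38.1 and 32.0 CPM, log2 -3.55 ± 0.42), passed in every refit. In library 1 alone, the venous difference was -6.16, where no venous UMI was found, and the lymphatic difference was -2.14. Mural cells, the pericytes and smooth muscle for which Abcc9 is a known marker, had 401 and 495 CPM in 3 and 17 cells. The mural marker sum ran against the order of Abcc9 among capillary cells. Without cells holding a UMI of Rgs5, Pdgfrb or Notch3, the capillary difference of Abcc9 was log2 -4.69. It was log2 -4.54 without cells holding a UMI of the fibroblast or red cell genes, Epcam or Krt8. Kcnj8, the pore subunit that partners Abcc9 in mural cells, did not follow it. It stood at 63.0 and 38.0 CPM in lymphatic cells against 7.31 and 3.86 CPM in blood cells (log2 3.16 ± 0.27). In Gpihbp1/Aqp1 capillary cells it stood at 31.1 and 12.5 CPM against 0 and 2.40 CPM in Plvap-high cells (log2 2.83 ± 0.48). Kcnj8 is itself among the listed mural markers, at 1103.5 and 465 CPM in mural cells. The sum of these markers was also higher in Gpihbp1/Aqp1 capillary than in Plvap-high cells. How much mural RNA adds to the capillary difference of Kcnj8 was not tested. The other pore subunit gene, Kcnj11, was not tested.

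Among the members that act inside the cell, Abce1, which splits ribosomes for reuse, was higher in lymphatic than in blood cells, at 86.6 and 86.7 against 41.7 and 50.8 CPM (log2 0.75 ± 0.19), a call lost in DESeq2 and with equal cell numbers. Abcd2, a peroxisomal importer of very long-chain fatty acids, also was higher there, on 1 and 11 UMIs against 2 and 10 UMIs (3.94 and 4.40 against 0.609 and 0.460 CPM, log2 3.04 ± 0.72), and was lost in DESeq2. The log2 difference of its CPM plus 1 was 1.62 in library 1 and 1.89 in library 2. Abcd2 passed the filter on low counts only through its lymphatic levels, so the test could hardly have found it lower there. Abcb8 was lower in lymphatic cells, 7.87 and 9.19 against 17.4 and 19.5 CPM (log2 -1.18 ± 0.33), and higher in arterial cells (29.5 and 21.0 CPM) than in Gpihbp1/Aqp1 capillary cells (log2 1.11 ± 0.31), and both calls ended in DESeq2 and with equal cell numbers. Abce1 was also lower in arterial than in Plvap-high capillary cells (37.6 and 39.3 against 41.0 and 54.7 CPM, log2 -0.45 ± 0.16), a call that 9 refits lost and that was at -0.12 in library 1 alone. Abcf2, linked to translation, was higher in venous than in Gpihbp1/Aqp1 capillary cells (52.0 and 43.5 against 28.4 and 31.8 CPM, log2 0.79 ± 0.23), lost without scaling and in DESeq2 and at 0.44 in library 2 alone.

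Other members at similar levels passed in no comparison. Abcf1, linked to translation start, ranged between 63.9 and 99.9 CPM and Abcf3 between 16.5 and 48.7 CPM over the 5 classes and both libraries. The peroxisomal fatty acid importer Abcd3 ranged between 10.9 and 39.4 CPM. Abcb10, of mitochondrial haem synthesis, stayed at 11.5 CPM or above in the blood classes and did not pass. Its lymphatic mean was 12.6 CPM with an SD of 12.2 over the 2 libraries. The difference of lymphatic from blood cells was -1.80 in library 1 alone and 0.29 in library 2 alone. Of the members with too few UMIs for the tests, Abcc3 had 37 UMIs in lymphatic and blood cells, and the Abca14-like rodent genes had 12 or fewer each.

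Lists of genes known to work with ABC transporters were chosen with earlier results of these data known. Their counts stand against 22.1% higher and 24.9% lower of all genes between lymphatic and blood cells, and 12.8% higher and 14.9% lower between Gpihbp1/Aqp1 and Plvap-high capillary cells. The median log2 fold change of all genes was -0.01 in the first contrast and 0.01 in the second. Of 12 tested genes of sterol sensing and nuclear receptors, 3 were higher, a share near that of all genes, and 5 lower in lymphatic than in blood cells (median log2 -0.17). Nr1h3, the liver X receptor alpha that switches on Abca1 and Abcg1, stood at 138 and 136 CPM in lymphatic cells against 9.75 and 4.92 CPM in blood cells (log2 4.43 ± 0.22), whereas Abca1 and Abcg1 did not pass. Nr1h2, the beta form, was lower (log2 -0.82 ± 0.19), as was Mylip, a ubiquitin ligase gene that the receptors switch on (log2 -1.09 ± 0.18). Between capillary classes, 3 of the list were higher and 4 lower in Gpihbp1/Aqp1 capillary cells (median log2 -0.05; all genes 12.8% and 14.9%), with Pparg, the fat cell regulator, at log2 3.49 ± 0.25, and Nfe2l2, the regulator of antioxidant genes, at log2 -0.76 ± 0.11.

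Of 13 tested genes of lipoprotein handling, 6 were lower and 2 higher in lymphatic cells (median log2 -0.36; all genes 24.9% and 22.1%), with the lipid transfer protein Pltp (log2 -5.65 ± 0.25), the HDL receptor Scarb1 (log2 -4.60 ± 0.22) and the fatty acid receptor Cd36 (log2 -3.99 ± 0.17) lower and Vldlr higher (log2 5.47 ± 0.26). Gpihbp1 belongs to this list and to the rule of the capillary classes, so its difference is no result. Of the other 12, 4 were higher and 1 lower in Gpihbp1/Aqp1 capillary than in Plvap-high cells (median log2 0.36; all genes 12.8% and 14.9%). Lpl, lipoprotein lipase, had 474 and 325 CPM against 11.5 and 8.06 CPM (log2 5.20 ± 0.18).

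Of 8 tested genes that accompany Abcb1a in brain barrier endothelium, 4 were higher and 3 lower in Gpihbp1/Aqp1 capillary cells (median log2 0.13; all genes 12.8% and 14.9%). The organic anion transporter Slco1a4 had 35.1 and 23.1 CPM against 0 and 0.480 CPM in Plvap-high cells (log2 5.65 ± 0.49), and the tight junction gene Cldn5 1327 and 840.0 CPM against 20.1 and 21.7 CPM (log2 5.34 ± 0.14). The monocarboxylate transporter Slc16a1 (log2 -2.65 ± 0.24) and the glucose transporter Slc2a1 (log2 -1.94 ± 0.17) were lower. In lymphatic cells, 5 of the 8 were lower than in blood cells, against 24.9% of all genes, and Cldn5 was higher (log2 1.05 ± 0.14). Slco1a4 had no UMI in lymphatic cells of either library against 155 in blood cells, at least 5.69-fold lower by a floor of 3 UMIs over both libraries, and with it at that bound the list's median was log2 -2.23.

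Of 13 tested enzymes of drug metabolism and glutathione, 6 were higher and 2 lower in lymphatic than in blood cells (median log2 0.38; all genes 22.1% and 24.9%). The largest changes were those of Cyp1b1 (311 and 235 against 26.2 and 19.4 CPM, log2 3.50 ± 0.18), Gstm2 (log2 -2.36 ± 0.32), Nqo1 (log2 2.32 ± 0.19) and Ephx1 (log2 2.32 ± 0.18). Between capillary classes 5 were higher and 5 lower in Gpihbp1/Aqp1 capillary cells (median log2 -0.31; all genes 12.8% and 14.9%), with Ephx1, a hydrolase of epoxides, at log2 2.19 ± 0.22 and Sult1a1, a sulfotransferase, at log2 2.14 ± 0.13. Cyp1b1 was lower there (log2 -3.55 ± 0.75) and Cyp1a1 higher (log2 3.15 ± 0.56).

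In the remaining lists the shares of all genes were again 22.1% higher and 24.9% lower in lymphatic cells, and 12.8% higher and 14.9% lower in Gpihbp1/Aqp1 capillary cells. Of the 8 genes of the peptide loading complex, 4 were higher in lymphatic cells (median log2 0.34), among them Tapbpl (log2 0.94 ± 0.20) and B2m (log2 0.63 ± 0.10), and 3 were lower in Gpihbp1/Aqp1 than in Plvap-high capillary cells (median log2 -0.23), none by more than log2 -0.37. Iron-sulfur and haem genes gave 3 higher, a share near that of all genes, and 2 lower of 13 in lymphatic cells (median log2 0.07), with Alas1 at log2 -1.25 ± 0.24 and Fech at log2 1.06 ± 0.25, and 1 lower of 12 between capillary classes (median log2 -0.07). Peroxisomal genes gave 2 higher and 1 lower of 10 in lymphatic cells (median log2 0.28). Ribosome recycling genes gave 1 higher (Hbs1l, log2 1.07 ± 0.21) and 1 lower (Eif2ak4, log2 -1.86 ± 0.32) of 7 in lymphatic cells (list median log2 0.18), and between capillary classes 1 of 6, Etf1, was lower (log2 -0.75 ± 0.13).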

How the data were processed

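Each library was made with the 10x 3' version 3 chemistry, per the labels. Unnormalized UMI counts per gene and barcode, 1 matrix of called barcodes per library, were deposited by the authors; they came from Cell Ranger 3.1.0 after bcl2fastq 2.2, with the mm10 build, per the submitters' processing notes. Which gene annotation went with it is not stated there. No deposited cell annotation was used, so the classes were rebuilt from marker counts and can differ from those of the study. The members, classes and gene lists were chosen with earlier results of these data known.

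A barcode needed 500 or more genes and no more than 15% mitochondrial UMIs, which left 978 and 6067 cells (median 3371 and 3814 UMIs). No doublet caller was run; 3 and 96 cells met both the lymphatic and the blood rule and were left out, and 28 and 171 met both the venous and the arterial rule and stayed in blood only. Cells meeting neither main rule were called mural with at least 5 UMIs of Rgs5, Pdgfrb and Notch3, fibroblast with at least 5 of Col1a1, Dcn and Lum, or leukocyte with at least 4 of Ptprc, Cd52 and Coro1a; these served for levels only. UMIs were summed per class and library and tested in edgeR 4.0.16 (R 4.3.3): TMM scaling, filterByExpr with a minimum count of 10, robust quasi-likelihood fit, library as a block. The 4 lymphatic and blood sums (1 residual degree of freedom, 11021 genes) and the 8 sums of the blood classes (3 degrees, 10075 genes) were fitted apart; the median prior degrees of freedom were infinite and 30.9. SE was taken as |log2 fold change| over the root of F, and 95% intervals of a difference are 1.96 SE each way. For genes near 0 in a class it can understate the counting error. Values of 1 library alone are differences of log2(CPM + 1). Fits were tested on simulated counts first.

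The block was kept since 1 library holds all its classes; as a pairing check, library differences correlated between classes in each of 10 pairs (Pearson's r from 0.147 to 0.482 over 6722 genes). Named were Abcb1a, Abcg1 and each member with at least 20 CPM in some class in both libraries (19 genes), every other member passing a test, and up to 4 passing genes of largest change per list. Some members and list genes are counted but not reported singly here, in text or plots. Coordinates are from GENCODE vM21 and promoters from RefSeq. Counting intervals (95%) cover counting error only. Alternatives were DESeq2 1.42.0, its size factors, no scaling, no filter, no block, other cell filters and marker rules, equal cell numbers and each library alone. Added after the data were seen were the refits without cells holding mural or other cell type UMIs, and lymphatic cells against the average of the 4 blood classes.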

Additional observations from a re-analysis of the deposited data

How the results depend on the processing

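Of 54 called member differences, 26 kept their call and direction in each of up to 14 refits that tested them, 28 lost the call in at least 1, and none reversed in a refit. The losses came mostly from DESeq2 (24), equal cell numbers (18) and the fit without the replicate block (18). Lymphatic against blood called 10 members, and 4 in DESeq2 and with equal cells. Arterial against venous called 6, with 2 in DESeq2, 2 without the replicate block and 10 when cells meeting 2 rules were assigned. Arterial against Plvap-high capillary called 7, with 4 in DESeq2, 2 without the block and 4 with equal cells. Arterial against Gpihbp1/Aqp1 capillary called 8, with 4 in DESeq2 and 4 with equal cells. The capillary contrast called 11, and 7 with equal cells, of which 5 were among the 11. Of the other 6 calls, Abcb8, Abcc5 and Abcd4 were lost there, and Abcb4, Abca8b and Abca5 were not tested, as they fell under the filter. Over all comparisons 27 of the 54 calls were kept and 18 lost with equal cells, which means fewer cells, and the rest were not tested there; the cause of the other moves was not tested. No test was possible with a library left out, since no residual degrees of freedom remain; the only called difference with another sign in a single library was Abcc4, venous against Gpihbp1/Aqp1 capillary, at -0.061 without replicate 2 and 0.288 without replicate 1. Without scaling, the median of all genes moved to 0.17 for arterial against venous, -0.13 for venous against Plvap-high, -0.27 for venous against Gpihbp1/Aqp1 capillary and 0.14 for the capillary contrast, all within 0.03 of zero with TMM. Arterial against Gpihbp1/Aqp1 capillary moved to -0.10, with 2 members higher and 9 lower (2 and 6 with TMM) and 853 of all genes higher and 1035 lower (1081 and 790 with TMM). The split of called members then was 4 higher and 2 lower for arterial against venous (3 and 3 with TMM), and 1 higher and 9 lower for venous against Gpihbp1/Aqp1 capillary (3 and 6 with TMM). Without cells holding mural UMIs, Abca8b in venous against Gpihbp1/Aqp1 capillary cells was at log2 -7.97, against -4.27, on 1 venous UMI in all. Library 1 alone held 78 lymphatic and 70 venous cells, which limits every value of a member under about 10 CPM there: 3 UMIs equal 11.8 and 9.18 CPM in these classes.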
